A study of Mus musculus with 32 samples.

Results

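The cerebrum at day 7 after cerebral photothrombosis was compared with the control cerebrum, on 8 of the 32 arrays of a mouse microarray study: the 4 arrays whose labels give day 7 cPT and the 4 whose labels give the cerebral control. All mice were male wild-type C57BL/6J animals, 6 to 12 weeks old. The other 24 arrays hold cerebral tissue of days 1 and 3 and spinal cord, 4 arrays in each group. The spinal groups are a control and days 1, 3 and 7 after spinal cord photothrombosis (scPT). Some of these arrays serve to test whether the cerebral day 7 response differed, and all of them enter the estimate of spread behind every test. The spinal control and spinal day 7 arrays also enter the shift that was added to the cerebral day 7 values, described below. The labels do not say whether control mice had surgery, which part of the cerebrum was taken, or whether each array stands for a separate mouse. The p-values therefore reflect only the spread between arrays, which may be technical. That spread was estimated for each gene over all 8 groups together, and is not that of the compared arrays alone. Titles number the samples of each group in a separate range, and the ranges of both control groups adjoin. Titles of the spinal day 7 arrays alone begin with P, and all others begin with G. If such a range or letter stands for a batch, the batch cannot be told apart from its group.

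Photothrombosis closes small vessels by lighting a circulating photosensitive dye, which leaves a sharply bordered ischaemic core. In the days that follow, microglia and blood-borne macrophages enter and surround the core and clear dead cells and myelin, astrocytes around it become reactive, and fibroblasts and matrix build a scar. Clearance loads phagocytes with lipid and protein, which they break down in lysosomes, store in droplets or export on apolipoproteins.

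Expression of 19505 genes was measured. Values are log2 values given relative to the mean of the 4 cerebral controls, so that a value of 1 is a doubling, and spinal values are given relative to the mean of the 4 spinal controls. They hold no absolute level, so genes are not set against each other by abundance. The deposited values had been centred separately for the day 7 arrays, and the shift this left in each gene was rebuilt. A gene was called only where its difference exceeded, by limma's moderated test, a bound made of the width of that rebuilt shift and an allowance of 0.145, at a Benjamini-Hochberg adjusted p under 0.05 over all genes. Differences are given ± the standard error of this fit, with 4 arrays in each group. This error pools the spread of a gene over all 8 groups, so it is too narrow where the compared groups spread more than the rest. At day 7, 1030 genes were called higher, 5.28% of those tested, and 561 were called lower, 2.88%, which makes 8.16% in either direction. The day 7 counts of the gene lists below are to be read against these shares. Over all genes the median difference was -0.054. The rise exceeded 1 in 397 of the genes called higher and 3 in 29 of them, whereas the fall exceeded 1 in 62 of those called lower and 2 in 1 of them. All 4 day 7 arrays lay above all 4 controls in 2721 genes, 14% of those tested, and below all of them in 2517, 12.9%.

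The labelled tissue was checked first, with spinal values here set relative to the mean of the 4 cerebral controls as well. Slc17a7, which loads glutamate into vesicles of cortical neurons, lay between -0.56 and 0.41 in the 8 cerebral arrays, and between -8.40 and -5.15 in the 8 spinal arrays of day 7 and control. Hoxc8, a gene of the trunk, lay between -0.23 and 0.68 in the cerebral arrays and, on the same cerebral scale, between 5.54 and 6.34 in the spinal arrays. Both genes went with the labels. The 4 controls differed from each other in genes of deep forebrain regions. The mean of 14 thalamus genes was 0.74, 0.12, -0.68 and -0.18 in control arrays 1 to 4, and that of 8 striatum genes was 0.69, 0.30, -0.93 and -0.066. Pmch, a neuropeptide of the lateral hypothalamus, lay at 3.24, 3.36, -3.23 and -3.37 in the controls. The fit was therefore repeated with control arrays 1 and 2 alone and with arrays 3 and 4 alone, and counts are given where they move by over 1.5 times.

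The largest rises were led by genes of activated and lipid-loaded phagocytes. Mmp12, a macrophage elastase, lay at 7.86, 7.82, 8.06 and 6.73 in day 7 arrays 1 to 4, against -0.38, -0.019, 0.16 and 0.24 in the controls, a difference of 7.62 ± 0.39 (adjusted p = 5.47e-15) and the highest of all genes tested. Gpnmb, a transmembrane glycoprotein of lipid-laden and lysosome-stressed phagocytes, lay at 6.80, 6.61, 6.75 and 6.22 in the day 7 arrays and at 0.053, -0.081, -0.15 and 0.18 in the controls. Its difference was 6.59 ± 0.57 (adjusted p = 1.07e-09), or 96.7-fold. Plin2, the coat protein of lipid droplets, lay at 5.94, 5.95, 5.84 and 5.51 in the day 7 arrays and at 0.26, -0.20, 0.068 and -0.13 in the controls, a difference of 5.81 ± 0.27 (adjusted p = 7.65e-16). In all 3 genes every day 7 array stood far above every control, and day 7 array 4 was the lowest of its group. RNA came from whole tissue, so more cells of a type and more RNA per cell cannot be told apart.

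**Figure D1:**
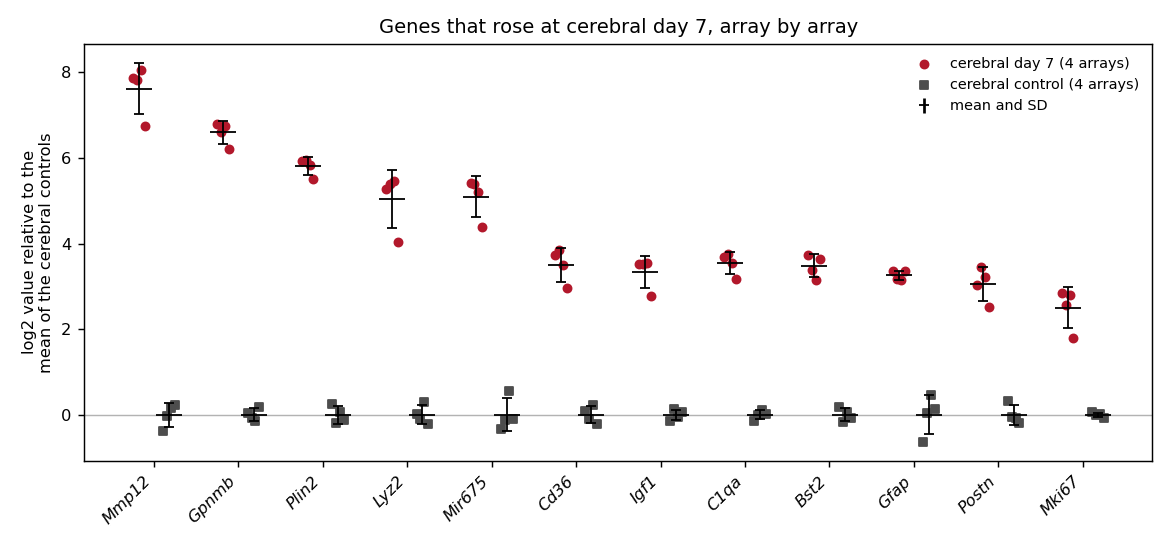
Log2 values of 12 genes that rose, relative to the mean of the 4 cerebral controls, with 1 point per array, day 7 arrays (red circles) left of controls (grey squares), and bars for the mean and SD of each group. The day 7 arrays lie above all controls in every gene shown, from Mmp12 at 6.73 to 8.06 down to Mki67 at 1.81 to 2.85, and array 4 is the lowest of the day 7 arrays in all of them but Bst2 and Gfap.

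Of 22 genes listed for phagocyte activation, 18 were measured, and 17 of these rose while 0 fell, with a median difference of 2.16, where 5.28% of all genes rose and their median was -0.054. Lpl, lipoprotein lipase, was the member that did not pass, at 0.028 ± 0.13. Trem2, the lipid-sensing receptor of the list, lay at 2.58, 3.07, 2.80 and 2.28 in the day 7 arrays and -0.35, 0.038, 0.025 and 0.28 in the controls (difference 2.68 ± 0.33). Tyrobp, its signalling adaptor, lay at 3.94, 3.66, 3.85 and 3.14 against -0.028, 0.052, -0.095 and 0.071 (difference 3.65 ± 0.22). Both sat clear of the controls in every array. Apoe, the main lipid carrier of the brain, rose by 1.57, and Lgals3, a galectin that marks damaged lysosomes, by 3.16. Ms4a7, a tetraspanning protein of infiltrating and border macrophages more than of resident microglia, lay at 3.84, 3.96, 4.19 and 2.99 in the day 7 arrays and -0.06 to 0.12 in the controls, and its difference was 3.74 ± 0.56 (adjusted p = 2.28e-05). Spp1, Clec7a and Cd68 of this list were not analysed here.

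Lysosomal genes rose almost throughout, 16 of 20 with 0 falls and a median of 1.39. The cathepsins led. Ctsz lay at 3.75, 3.71, 3.49 and 3.22 in the day 7 arrays, against 0.10, -0.15, -0.088 and 0.14 in the controls (difference 3.54 ± 0.24, adjusted p = 2.88e-12). Ctsh rose by 2.38, Ctss by 2.24, Ctsl by 1.58, Ctsc by 1.31, Ctsb by 1.22 and Ctsk by 1.21. The rises extended to the glycosidases Gusb (2.26 ± 0.23) and Hexa (1.76 ± 0.34), to progranulin, Grn (2.15 ± 0.17), and to Lipa, the acid lipase that frees cholesterol from its esters (1.82 ± 0.19). Npc2, which hands that cholesterol on, rose by 1.30, whereas its membrane partner Npc1 did not pass, at -0.052 ± 0.15. Slc15a3, an endolysosomal peptide transporter outside this list and among the 15 largest rises, lay at 4.28, 3.88, 3.81 and 3.31 in the day 7 arrays and -0.38 to 0.17 in the controls (difference 3.82 ± 0.25).

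Among 18 measured genes of lipid uptake, storage and efflux, 9 rose and 0 fell, with a median of 0.46. Uptake receptors and carriers rose beside Plin2. Cd36, the scavenger receptor for oxidised lipid, lay at 3.72, 3.84, 3.49 and 2.95 in the day 7 arrays and 0.09, -0.11, 0.23 and -0.21 in the controls, a difference of 3.50 ± 0.28 (adjusted p = 2.71e-10). Msr1, another scavenger receptor, rose by 1.31, and the fatty acid binding proteins Fabp4 and Fabp5 by 2.77 and 1.15. On the side of efflux, Abca1, the cholesterol exporter, rose by 2.10, and Ch25h, which makes an oxysterol, by 2.27. Abcg1 (0.14 ± 0.13), Nr1h3, the liver X receptor (0.31 ± 0.18), and Pparg (-0.60 ± 0.18) did not pass. Of 15 cholesterol synthesis genes 1 passed, Hmgcs1 at 0.62 ± 0.16, and the median was -0.11. Leaving out any single array but control array 3 or day 7 array 1 ended this call (0.55 to 0.62).

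Identity genes of the resident and the blood-borne phagocytes moved unevenly. Of 13 measured genes of homeostatic microglia 7 rose, and 0 fell. Csf1r, the growth factor receptor that keeps microglia alive, lay at 1.82, 1.64, 1.47 and 1.35 in the day 7 arrays and -0.23, 0.12, 0.17 and -0.052 in the controls (difference 1.57 ± 0.24). Cx3cr1, the fractalkine receptor, rose by 1.46, Gpr34 by 1.59 and Fcrls by 1.69. P2ry12, the purine receptor that steers resting microglia, lay at 0.34, -0.22, -0.043 and -0.12 in the day 7 arrays and 0.079, -0.081, -0.026 and 0.028 in the controls, so the groups overlapped, and its difference was -0.011 ± 0.25. Tmem119 (0.24 ± 0.15), P2ry13 (0.50 ± 0.17) and Sall1 (0.27 ± 0.18) did not pass either.

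Of 19 genes of monocytes and macrophages, 9 rose and 0 fell. Lyz2, lysozyme, lay at 5.28, 5.38, 5.47 and 4.04 in the day 7 arrays and 0.022, -0.10, 0.30 and -0.22 in the controls, a difference of 5.04 ± 0.48 (adjusted p = 6.19e-09). Mpeg1, a pore-forming protein of macrophages, lay at 4.48, 4.06, 4.08 and 3.71 against 0.19, 0.047, -0.11 and -0.13 (difference 4.08 ± 0.28). Adgre1, which encodes F4/80, rose by 1.59, and Pf4 by 2.17. Arg1, the arginase of alternatively activated macrophages, reached 1.69, 1.59, 1.16 and 1.33 in the day 7 arrays, against -0.23, 0.13, -0.20 and 0.30 in the controls, and just passed (1.44 ± 0.44, adjusted p = 0.0445), and it failed the test when any 1 of the 8 arrays was left out (1.36 to 1.54). The monocyte genes Ccr2 (0.43 ± 0.21) and Ly6c2 (-0.016 ± 0.20) and the perivascular macrophage genes Cd163 (-0.23 ± 0.21) and Lyve1 (0.033 ± 0.28) did not pass.

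Genes of other leukocytes passed at about the share of all genes, of which 5.28% rose. By limma's test 0 of 14 lymphocyte genes and 0 of 10 dendritic cell genes passed in either direction, with 1 of each list at an unadjusted p under 0.05 and medians of -0.075 and -0.074. Of 14 neutrophil genes 2 rose, the receptor Csf3r (1.56 ± 0.19) and the collagenase Mmp8 (1.24 ± 0.27). The neutrophil granule genes Ngp, Camp, Ltf, Mpo and Elane lay between -0.36 and -0.10 and did not pass. The mean of the neutrophil list was 0.14 to 0.25 in the day 7 arrays and -0.057 to 0.092 in the controls.

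Many, but not all, sensing receptor genes of phagocytes rose. Among 8 Fc receptor genes 7 rose, led by Fcer1g, the shared signalling chain, at 2.96, 2.83, 2.38 and 2.13 in the day 7 arrays and -0.29 to 0.20 in the controls (2.58 ± 0.23), and by Fcgr3 (2.44 ± 0.16). Of 18 other myeloid receptors 12 rose, with a median of 0.84. The largest of these was the inhibitory receptor Lilrb4a, at 4.64, 4.27, 4.60 and 3.73 in the day 7 arrays and -0.29, 0.03, 0.10 and 0.17 in the controls, a difference of 4.31 ± 0.28 (adjusted p = 1.97e-12). The count of 12 myeloid receptors was 7 with controls 1 and 2 alone and 5 with controls 3 and 4 alone. Of 13 genes of Toll-like receptor signalling 6 rose, and 10 did with quantile normalisation on top of the values with the rebuilt shift. They were led by the nucleic acid sensors Tlr13 (2.48 ± 0.28) and Tlr7 (2.44 ± 0.22), whereas Tlr4, which senses bacterial lipopolysaccharide, was at 0.25 ± 0.18 and did not pass. Of 5 measured subunits and regulators of the phagocyte NADPH oxidase 4 rose, among them both membrane subunits, Cyba (2.95 ± 0.21) and Cybb (2.56 ± 0.37).

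Among complement genes the chains of C1q, which starts the classical pathway, rose most. C1qa, C1qb and C1qc, which form the recognition molecule C1q, rose by 3.54, 3.18 and 3.26. C1qa lay at 3.69, 3.75, 3.56 and 3.17 in the day 7 arrays and -0.14, 0.0037, 0.12 and 0.014 in the controls (adjusted p = 2.62e-12). C4b rose by 1.75, the anaphylatoxin receptor C3ar1 by 2.76 and Itgam, a subunit of complement receptor 3, by 1.47. The proteases C1ra (0.04 ± 0.14) and C1s1 (-0.10 ± 0.19), the inhibitor Serping1 (-0.023 ± 0.17) and Cfb of the alternative pathway (0.32 ± 0.20) did not pass, and 7 of 16 complement genes rose in all.

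Of 12 Bcl2 family genes 4 rose. All 4 were paralogs of Bcl2a1, survival genes of myeloid cells, and the other 8 did not pass. Bcl2a1b lay at 5.50, 5.38, 5.37 and 4.97 in the day 7 arrays and 0.14, -0.0036, -0.38 and 0.25 in the controls (5.31 ± 0.22, adjusted p = 7.92e-17). Bcl2a1d followed at 4.58 ± 0.24, Bcl2a1a at 4.19 ± 0.25 and Bcl2a1c at 1.08 ± 0.17. The paralogs are nearly identical, so a probe may read several of them, and the values are uncertain as to which gene rose. Mcl1 (0.50 ± 0.13, and passing at 0.56 without control array 2), Bcl2 (0.13 ± 0.17) and the killers Bbc3 (-0.12 ± 0.12) and Pmaip1 (0.0099 ± 0.14) did not pass.

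Antigen presentation genes of both classes rose in part. Of 11 genes of MHC class II presentation 7 rose, with the peptide loader H2-DMb1 at 2.42 ± 0.28 and the classical chains H2-Eb1 and H2-Ab1 at 1.55 ± 0.28 and 1.12 ± 0.24. Their transcriptional activator Ciita lay at -0.092 ± 0.11 and did not pass. H2-Ab1 failed the test without control array 2 or day 7 array 1 (1.02 to 1.05). The class II count was 4 with controls 3 and 4 alone and 4 without day 7 array 1. Of 11 genes of MHC class I presentation 7 rose. H2-K1, a classical heavy chain, lay at 1.99, 2.18, 1.78 and 2.21 in the day 7 arrays and -0.059 to 0.069 in the controls (2.04 ± 0.18), the light chain B2m rose by 1.88, and the immunoproteasome subunits Psmb8 and Psmb9 by 2.0 and 1.66. Day 7 array 4, the lowest in most phagocyte genes, was the highest of its group in H2-K1 and Psmb8.

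Type I interferon target genes rose, 12 of 20 with 0 falls, and a median of 0.76. Interferons act through the factor complex ISGF3, which binds a short repeated element, the ISRE, in the promoters of such genes. Bst2, which tethers budding virus, lay at 3.74, 3.38, 3.16 and 3.64 in the day 7 arrays and 0.18, -0.17, 0.07 and -0.081 in the controls, a difference of 3.48 ± 0.31 (adjusted p = 1.84e-09). Ifit3, which binds viral RNA with its relatives, lay at 1.67, 1.70, 1.39 and 2.17 against -0.10, -0.04, 0.16 and -0.016 (1.73 ± 0.20), Ifit1 at 1.30, 1.16, 0.87 and 1.91 against -0.023, -0.40, 0.27 and 0.16 (1.31 ± 0.33), and the ubiquitin-like Isg15 at 1.88, 0.98, 0.73 and 1.58 against 0.14, -0.37, 0.11 and 0.12 (1.29 ± 0.19). The day 7 arrays stood above the controls in each of these 4 genes, and arrays 1 and 4 were the higher and arrays 2 and 3 the lower in Bst2 and Isg15. Irf7, which amplifies the response, rose by 1.25, and Irf9, the DNA-binding subunit of ISGF3, by 0.71. Mx1 (0.26 ± 0.15), Rsad2 (0.33 ± 0.22), Oas2 (0.32 ± 0.15) and Stat2 (0.54 ± 0.28) did not pass. Ifit1 failed the test without control array 2 or day 7 array 4 (1.11 to 1.17), and Irf9 without control array 1 (0.60). The count of 12 was 7 with controls 3 and 4 alone.

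The 250 bases before the start of 3 of these genes are shown, since they rose and carry the ISRE core. They are from RefSeq, build GRCm38.p6, read 5′ to 3′ in the direction of the gene and end just before the transcription start, with matches to the core GAAA, any 2 bases and GAAA again, on either strand, in capitals.
Ifit1, chr19:34640639-34640888, plus strand: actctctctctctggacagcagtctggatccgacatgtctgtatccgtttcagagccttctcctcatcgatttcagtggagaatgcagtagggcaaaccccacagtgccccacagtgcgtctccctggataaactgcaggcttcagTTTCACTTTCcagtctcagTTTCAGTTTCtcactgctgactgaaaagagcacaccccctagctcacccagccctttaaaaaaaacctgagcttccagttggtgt
Ifit3, chr19:34583279-34583528, plus strand: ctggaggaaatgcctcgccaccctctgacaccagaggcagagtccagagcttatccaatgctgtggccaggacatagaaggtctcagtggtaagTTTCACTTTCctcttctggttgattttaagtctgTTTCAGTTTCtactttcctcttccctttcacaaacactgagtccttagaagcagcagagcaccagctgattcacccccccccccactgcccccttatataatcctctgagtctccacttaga
Isg15, chr4:156200819-156201068, minus strand: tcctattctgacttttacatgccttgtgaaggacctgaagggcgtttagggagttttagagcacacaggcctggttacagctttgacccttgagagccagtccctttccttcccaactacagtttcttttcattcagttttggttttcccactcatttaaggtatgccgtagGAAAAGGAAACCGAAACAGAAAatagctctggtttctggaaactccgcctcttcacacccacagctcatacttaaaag
In Ifit1 the matches begin 104 and 85 bases before the start and in Ifit3 156 and 122 bases before it, both on the opposite strand. In Isg15 3 overlapping matches make 1 stretch that begins 78 bases before the start. Of 14 list genes with a promoter in RefSeq's set, 7 held the core (50.0%), among them Bst2 and Oas1a, which rose, and Stat2 and Rsad2, which did not pass. Over all 27025 genes with a promoter there, 3.46% held it. A match describes these letters and is not a measured binding site. The PU.1 motif GAGGAAGT, of the lineage factor of phagocytes, was in 0 of 13 promoters of the phagocyte activation list and in 2.79% of all genes.

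Secreted signals changed in part, where 8.16% of all genes were called in either direction. Of 22 chemokine and chemokine receptor genes 6 rose, led by Ccl3 at 2.70, 2.51, 2.40 and 2.04 in the day 7 arrays and -0.25 to 0.20 in the controls (2.41 ± 0.30) and by Cxcl16 (1.51 ± 0.30). Cx3cl1, fractalkine, which neurons make, fell by 0.76 on the log2 scale. Ccl2 (0.57 ± 0.27), Cxcl10 (0.23 ± 0.12) and Cxcl1 (0.048 ± 0.13) did not pass. Of 15 cytokines 4 rose, Csf1, the ligand of Csf1r (1.60 ± 0.14), Tgfb1 (1.41 ± 0.26), Il33 (0.84 ± 0.19) and Il1a (0.83 ± 0.14). Il33 failed the test without control array 3, control array 4 or day 7 array 2 (0.74 to 0.75). Il1b (0.53 ± 0.50), Tnf (0.13 ± 0.13) and Il6 (0.12 ± 0.38) did not pass.

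**Figure D2:**
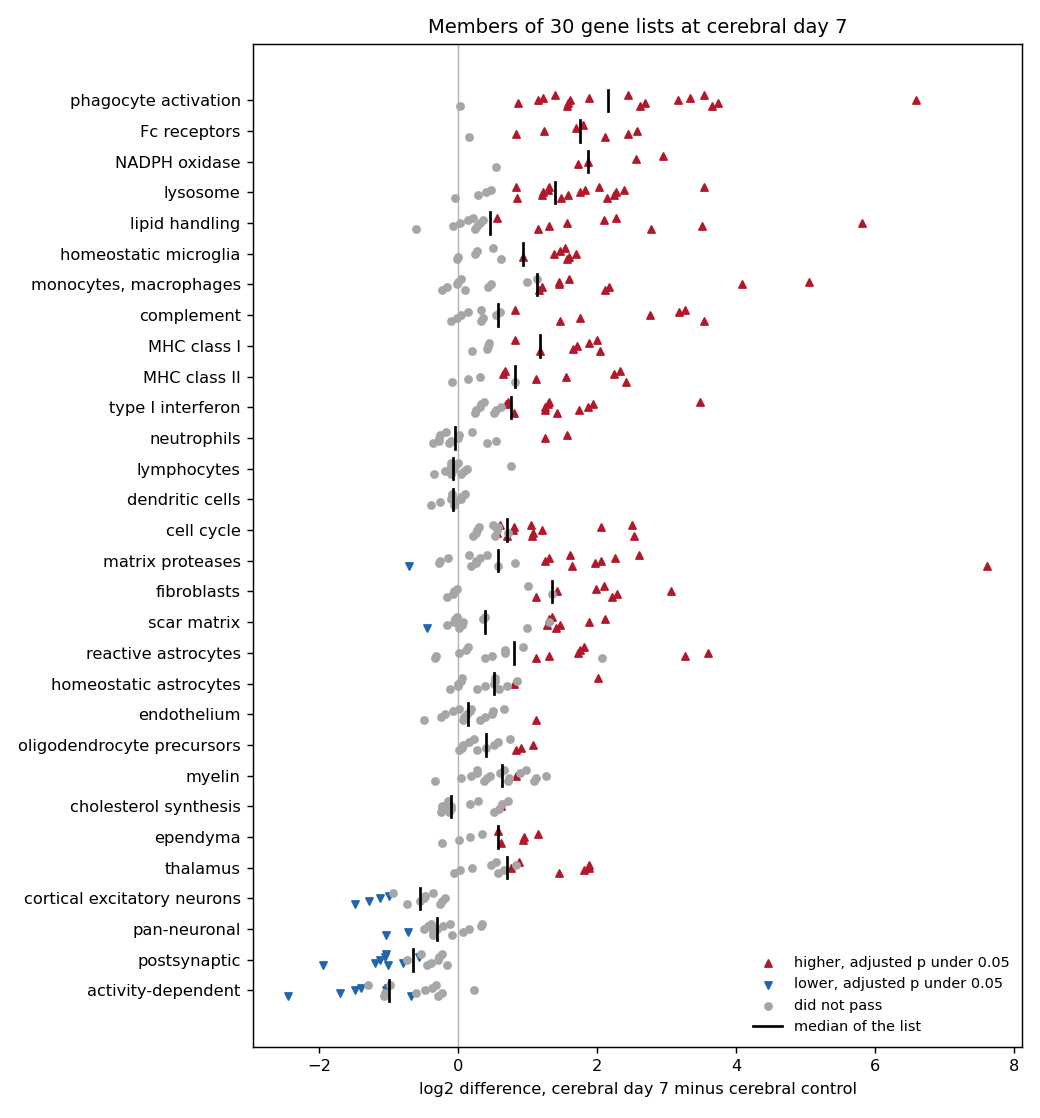
Log2 differences, cerebral day 7 minus cerebral control, of the measured members of the gene lists described here, 1 marker per gene: red triangles rose, blue triangles fell, grey circles did not pass an adjusted p of 0.05, and black bars are list medians. Lists of phagocyte genes lie right of 0, with a median of 2.16 for phagocyte activation, and those of postsynaptic and activity-dependent genes left of it, at -0.65 and -1.0.

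The insulin-like growth factor axis rose in 3 of 11 genes, where 5.28% of all genes rose. Igf1, the secreted growth factor, lay at 3.51, 3.53, 3.55 and 2.78 in the day 7 arrays and -0.13, 0.14, -0.061 and 0.055 in the controls, a difference of 3.34 ± 0.53 (adjusted p = 0.00101). Igfbp7, which binds such factors weakly, rose by 1.57. Igf2 (1.0 ± 0.54), Igfbp5 (1.76 ± 0.52) and Igfbp2 (1.23 ± 0.29) did not pass the test against their bounds of 0.94, 0.57 and 0.74. The third was the gene Mir675, whose hairpin lies inside the imprinted noncoding RNA H19. The probe annotated to it lay at 5.41, 5.39, 5.20 and 4.38 in the day 7 arrays and -0.33, -0.12, 0.55 and -0.11 in the controls, and the difference was 5.10 ± 0.59 (adjusted p = 2.79e-07), among the 5 largest of all genes. H19 was not analysed here, and whether this probe read H19, the hairpin or a mature miRNA was not tested. The 2 mature sequences of the hairpin, both on the minus strand of GRCm38.p6 and from RefSeq, are shown with the seed, bases 2 to 8, in capitals.
mmu-miR-675-5p, chr7:142577112-142577133: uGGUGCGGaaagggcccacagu
mmu-miR-675-3p, chr7:142577078-142577099: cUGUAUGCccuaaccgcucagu
The seeds differ from each other, and no other of the 1679 mature mouse miRNAs in the table shares either of them.

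Matrix-degrading enzymes and matrix genes rose in part. Of 21 proteases and inhibitors 9 rose and 1 fell. Beside Mmp12 they were the stromelysin Mmp3, at 2.77, 3.29, 2.77 and 1.58 in the day 7 arrays and 0.15, -0.22, -0.0021 and 0.072 in the controls (2.60 ± 0.70), Adam8 (2.26 ± 0.23), the collagenase Mmp13 (2.05 ± 0.21), the membrane-bound Mmp14 (1.96 ± 0.24), Mmp2, which Mmp14 activates (1.61 ± 0.27), Mmp11, Mmp8 and the inhibitor Timp2 (1.64 ± 0.15). Mmp17 was the member that fell, at -0.71 ± 0.15, and Mmp9 (0.42 ± 0.27) and Timp1 (0.82 ± 0.41) did not pass. Of 13 fibroblast genes 7 rose and 0 fell, with a median of 1.36. Postn, a matricellular protein of scar fibroblasts, lay at 3.04, 3.46, 3.22 and 2.53 in the day 7 arrays and 0.32, -0.041, -0.083 and -0.20 in the controls (3.06 ± 0.39, adjusted p = 1.63e-06). The fibrillar collagens Col3a1, Col1a1 and Col1a2 rose by 2.29, 2.10 and 1.12. Col1a2 failed the test when any 1 of the 8 arrays was left out (1.09 to 1.18), Mmp3 without day 7 array 2 (2.37) and Mmp11 without any 1 of 5 arrays (1.24 to 1.29). The fibroblast count of 7 was 4 with controls 1 and 2 alone. Of 19 scar matrix genes 7 rose, among them fibronectin, Fn1 (2.11 ± 0.37), biglycan, Bgn (1.88 ± 0.34), Sparc (1.46 ± 0.15) and Thbs2 (1.36 ± 0.23), and 1 fell, Ccn2 (-0.45 ± 0.10), a call lost without control array 1 or 4 or day 7 array 1, 2 or 4 (-0.46 to -0.37). The basement membrane collagens Col4a1 (-0.062 ± 0.091) and Col4a2 (0.066 ± 0.11) did not pass.

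Reactive astrocyte genes rose in part. Gfap, their intermediate filament, lay at 3.35, 3.18, 3.14 and 3.36 in the day 7 arrays and -0.63, 0.051, 0.45 and 0.13 in the controls, a difference of 3.26 ± 0.26 (adjusted p = 1.81e-10). Serpina3n, a secreted protease inhibitor, lay at 3.57, 3.71, 3.45 and 3.66 against -0.06, 0.14, -0.066 and -0.014 (3.60 ± 0.21). Each group was tight in Serpina3n, and the day 7 arrays stood together in both genes. In all 7 of 18 reactive genes rose and 0 fell, the others being Tgm1, Cd44, Emp1, Tnc and Vim, from 1.12 to 1.80. Lcn2, an iron-binding acute phase protein, lay at 2.18, 2.37, 1.79 and 1.97 in the day 7 arrays and 0.26, 0.31, -0.50 and -0.058 in the controls. It did not pass the test against its bound of 1.01. Of 15 genes of homeostatic astrocytes 2 rose, the water channel Aqp4, at 2.03, 2.10, 1.92 and 2.0 in the day 7 arrays and -0.066, -0.0015, -0.023 and 0.091 in the controls (2.01 ± 0.36), and the glutamate transporter Slc1a3 (0.80 ± 0.15), and 0 fell. The second glutamate transporter, Slc1a2, was at -0.0071 ± 0.11 and did not pass. With quantile normalisation 5 of the 15 rose. In the main fit 5.28% of all genes rose.

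Precursor and myelin genes of the oligodendrocyte lineage were read against the 5.28% of all genes that rose. Of 13 precursor genes 3 rose, Lhfpl3 (1.08 ± 0.17), the proteoglycan core Vcan (0.90 ± 0.14) and Enpp6, of newly forming oligodendrocytes (0.83 ± 0.24), whose call was lost without any 1 array but control array 1 (0.75 to 0.90). Of 18 myelin genes 1 passed, transferrin, Trf (0.83 ± 0.19), and 0 fell, and without control array 1 the count was 2. Bounds were wide for several of the others, up to 1.29 for Fa2h. Mbp, myelin basic protein, lay at 0.74, 0.67, 0.49 and 0.70 in the day 7 arrays and 0.31, 0.051, -0.15 and -0.21 in the controls, above them in every array, with a difference of 0.65 ± 0.11 against a bound of 0.58. The mean of the myelin list was 0.45 to 0.67 in the day 7 arrays, against 0.30, 0.15, -0.25 and -0.20 in control arrays 1 to 4.

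Cell division genes rose in 12 of 21, with 0 falls and a median of 0.70, where 5.28% of all genes rose. Mki67, which cycling cells express, lay at 2.85, 2.55, 2.81 and 1.81 in the day 7 arrays and 0.056, 0.0015, 0.011 and -0.069 in the controls (2.50 ± 0.36, adjusted p = 1.24e-05). The mitotic kinase Cdk1 lay at 2.90, 2.65, 2.15 and 2.43 against -0.029, -0.41, 0.30 and 0.13 (2.53 ± 0.35), and Pbk rose by 2.06, Top2a by 1.05, Ccna2 by 1.08 and Pcna by 0.79. All 4 day 7 arrays lay above all 4 controls in 17 of the 21 genes, as they did in 14% of all genes. The count of 12 was 6 with controls 3 and 4 alone.

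Vessel genes passed at a share near the 8.16% of all genes called in either direction. Of 16 endothelial genes 1 rose, the tight junction gene Cldn5 (1.12 ± 0.18), of 12 pericyte and smooth muscle genes 1, the aminopeptidase Anpep (1.55 ± 0.37), and of 11 angiogenesis genes 1, Cd93 (0.99 ± 0.23). Vegfa, the main growth factor of vessels, was at -0.40 ± 0.16 and did not pass. Of 14 hypoxia and glycolysis genes Hk2 rose (1.32 ± 0.28) and P4ha1 fell (-0.57 ± 0.14). Without any 1 of control arrays 1 and 2 and day 7 arrays 1, 2 and 4 Hk2 failed the test (1.15 to 1.32), and without any 1 array but control array 1 and day 7 array 3 P4ha1 did (-0.58 to -0.50). Handling of iron and haem rose in 5 of 14 genes. Ftl1, the ferritin light chain, lay at 2.18, 2.36, 2.28 and 1.75 in the day 7 arrays and -0.02, 0.0073, 0.016 and -0.003 in the controls (2.14 ± 0.19), and the phagosomal metal transporter Slc11a1 (1.81 ± 0.24), haem oxygenase, Hmox1 (1.56 ± 0.37), and the iron exporter Slc40a1 (0.80 ± 0.14) rose too. Of 17 genes of oxidative phosphorylation 1 rose, Sdha (0.98 ± 0.19), with a list median of 0.29, and 4 did with quantile normalisation. By limma's test 0 of 10 genes of axon regeneration passed, 0 of them at an unadjusted p under 0.05, with a median of 0.043.

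Genes of neuronal activity and of the synapse were among the largest falls. The largest fall was that of Nr4a1, an immediate early nuclear receptor, at -2.94, -2.20, -2.46 and -2.19 in the day 7 arrays and -1.25, 0.70, 0.30 and 0.25 in the controls, a difference of -2.45 ± 0.25 (adjusted p = 4.95e-08). Control array 1 stood well below the other 3 here, though above every day 7 array. Arc, which neurons make after synaptic input, lay at -1.74, -1.28, -1.39 and -1.52 against -0.71, 0.38, 0.60 and -0.27 (-1.48 ± 0.23), and Nr4a2 at -1.53, -1.49, -1.04 and -1.57 against -0.44, -0.15, 0.26 and 0.32 (-1.41 ± 0.21). Of 18 activity-dependent genes 7 fell and 0 rose, with a median of -1.0, the others being Egr2, Egr3, Npas4 and Fos, from -1.71 to -0.68. In Egr2 control array 1, at -1.58, lay within the day 7 range of -1.95 to -1.57. Egr2 failed the test without control array 3 or 4 (-1.52), and Fos without control array 2 or 3 or day 7 array 3 or 4 (-0.63 to -0.59). Egr1 (-1.30 ± 0.30), Fosb (-1.05 ± 0.40) and Bdnf (-0.29 ± 0.45) did not pass, though Egr1 did without control array 1 (-1.63). The mean of the list was -0.79 to -1.01 in the day 7 arrays, and -0.49 in control array 1 against 0.12 to 0.20 in the other 3. The cAMP response element TGACGTCA was in 2 of 13 promoters of the list, those of Dusp1 and Btg2, which did not pass, and in 1.77% of all genes.

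**Figure D3:**
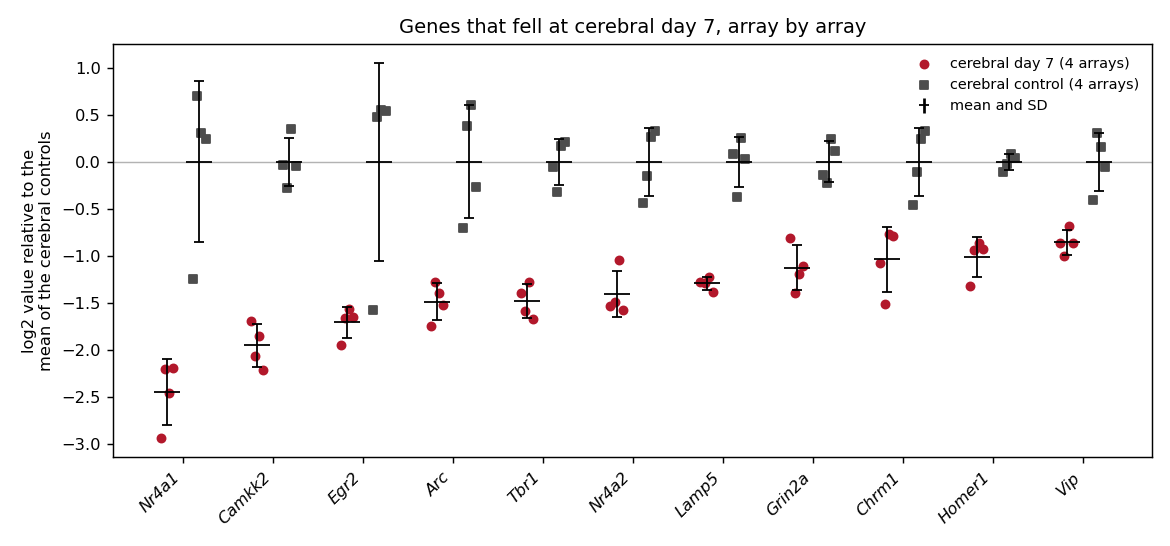
Log2 values of 11 genes that fell, relative to the mean of the 4 cerebral controls, with 1 point per array, day 7 arrays (red circles) left of controls (grey squares), and bars for the mean and SD of each group. The day 7 arrays lie below the controls in every gene shown except Egr2, in which control array 1 lies at -1.58, and control array 1 is also the lowest control in Nr4a1, at -1.25.

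Postsynaptic genes fell in 8 of 16, with 0 rises and a median of -0.65. Camkk2, a calcium-dependent kinase upstream of other kinases, lay at -1.69, -2.06, -1.85 and -2.21 in the day 7 arrays and -0.029, -0.27, 0.35 and -0.045 in the controls (-1.95 ± 0.15, adjusted p = 1.73e-10). Itpka, an inositol kinase of dendritic spines, fell to -1.35 to -1.0 in the day 7 arrays, against -0.35 to 0.23 in the controls (-1.20 ± 0.16). The NMDA receptor subunit Grin2a (-1.13 ± 0.17), the muscarinic receptor Chrm1 (-1.04 ± 0.17) and the scaffolds Homer1 (-1.01 ± 0.16), Dlg4 (-0.80 ± 0.14) and Shank3 (-0.57 ± 0.14) fell, while the AMPA receptor subunits Gria1 (-0.16 ± 0.23) and Gria2 (-0.39 ± 0.21) did not pass. Shank3 failed the test without any 1 array but day 7 array 3 (-0.59 to -0.46).

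Neuron identity genes fell in part, where 2.88% of all genes fell and 8.16% were called in either direction. Of 13 genes of cortical excitatory neurons 4 fell and 0 rose, with a median of -0.55. Tbr1, the transcription factor of deep cortical layers, lay at -1.40, -1.58, -1.27 and -1.67 in the day 7 arrays and -0.055, -0.32, 0.17 and 0.21 in the controls (-1.48 ± 0.15, adjusted p = 8.38e-08). Lamp5, of upper layers and some interneurons, lay at -1.27, -1.28, -1.22 and -1.39 against 0.086, -0.37, 0.26 and 0.029 (-1.29 ± 0.17). Nrgn, a calmodulin-binding protein of spines (-1.0 ± 0.15), and Neurod6 (-1.13 ± 0.26) were the others, whereas Slc17a7 (-0.23 ± 0.31) and the layer genes Cux2 (-0.19 ± 0.17) and Fezf2 (-0.73 ± 0.21) did not pass. Neurod6 failed the test without control array 3 (-0.87), and Fezf2 passed it without control array 1 (-1.07). With quantile normalisation on top of the values with the rebuilt shift 10 of the 13 fell, with a median of -1.03. Of 15 genes shared by all neurons 2 fell, Stx1a of the release machinery (-1.04 ± 0.18) and the neurofilament Nefm (-0.72 ± 0.15), and of 13 interneuron genes 1, Vip (-0.85 ± 0.19). With quantile normalisation 6 of the 15 shared neuronal genes fell.

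Outside these lists, the 15 largest falls held Frzb, a secreted Wnt antagonist, at -1.47, -1.62, -1.75 and -2.04 in the day 7 arrays and -0.16, -0.035, 0.10 and 0.093 in the controls (-1.72 ± 0.25). Tafa1, a secreted chemokine-like protein of neurons, fell by 1.39, the neuropeptide Y receptor Npy1r had a difference of -1.22 ± 0.22, and the potassium channel Kcnh4 one of -1.26 ± 0.17. Leng8 (-1.25 ± 0.16) and Jph1, a junctophilin that ties plasma membrane to endoplasmic reticulum (-1.23 ± 0.14), fell as well. The olfactory receptor genes Olfr731 and Olfr1170 were at -1.53 ± 0.28 and -1.48 ± 0.19. Mlip, at -1.21, -1.27, -1.20 and -1.24 in the day 7 arrays, just passed (-1.23 ± 0.37, adjusted p = 0.0437), and it failed the test when any 1 of the 8 arrays was left out (-1.31 to -1.16). Npy1r failed it with controls 1 and 2 alone, and Olfr731 with controls 3 and 4 alone.

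Some genes of deep regions rose, and the controls differed widely in them. Of 14 thalamus genes 6 rose, and the count was 3 with controls 1 and 2 alone. Tcf7l2, the transcription factor that marks thalamus, lay at 2.28, 1.92, 1.63 and 1.67 in the day 7 arrays and 1.43, 0.48, -1.69 and -0.23 in the controls (1.88 ± 0.32), and Slc17a6, the subcortical glutamate transporter, at 1.62, 1.48, 1.27 and 1.41 against 0.68, 0.41, -0.86 and -0.23 (1.44 ± 0.21). The day 7 arrays were close to each other and the controls far apart, with control arrays 1 and 2 above arrays 3 and 4. For both genes the pooled standard error is smaller than the spread of these controls alone would give. The mean of the thalamus list was 1.07, 0.79, 0.71 and 0.82 in the day 7 arrays, near the 0.74 of control array 1. By limma's test 0 of 8 striatum and 0 of 9 choroid plexus genes passed, 1 of each at an unadjusted p under 0.05, and with controls 1 and 2 alone 2 striatum genes fell. Of 12 hypothalamus and pituitary genes Cartpt rose (1.20 ± 0.20) and the hormones Pomc (-1.33 ± 0.24) and Gh (-0.77 ± 0.18) fell, Pomc with groups that overlapped. Gh failed the test without control array 4 or day 7 array 1 (-0.65 to -0.52). Pmch lay at 0.34, 4.67, 5.38 and 6.06 in the day 7 arrays, which overlapped the controls, and did not pass. Of 9 ependyma genes, which belong to the ciliated lining of the ventricles, 5 rose, from 0.58 to 1.14. This count was 1 with controls 1 and 2 alone, 3 with controls 3 and 4 alone, 2 without control array 3 and 3 without control array 2, control array 4 or day 7 array 1. The part that dissection plays in these lists, and in the neuronal genes above, was not tested. The mean of cortical excitatory neuron genes was -0.76 to -0.67 in the day 7 arrays, against -0.20, -0.12, 0.27 and 0.054 in control arrays 1 to 4.

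The day 7 response of the cerebrum was then set against that of the spinal cord at day 7 after scPT. The test of the difference between the 2 responses was passed by 2841 genes with a cerebral response above the spinal one (14.6% of those tested) and by 2541 with one below it (13%), together 27.6%. Of the 1030 genes that rose in the cerebrum at day 7, 487 had a cerebral response below the spinal one and 101 above it. Of the 561 that fell, 90 were below and 88 above. Lesion and dissected piece differ between the models, and the share of lesioned tissue in each sample was not tested. The titles of the spinal day 7 arrays alone begin with P, and what this letter stands for was not given.

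Genes of myelin, of cholesterol synthesis and of neurons had a cerebral response above the spinal one. This held for 15 of 15 cholesterol synthesis genes, 15 of 18 myelin genes and 12 of 15 genes shared by neurons. Their medians were -0.11, 0.63 and -0.30 in the cerebral day 7 arrays, against -1.10, -0.65 and -1.05 in the spinal ones, so the spinal values lay below their controls. Hmgcs1, the HMG-CoA synthase of the pathway, had a mean of 0.62 in the cerebral day 7 arrays and -1.80 in the spinal ones (2.41 ± 0.23). With quantile normalisation on top, the counts were 13, 14 and 6, with 1 shared neuronal gene below the spinal response. Of 13 genes of cortical excitatory neurons 3 were above and 2 below, where 14.6% and 13% of all genes were. With quantile normalisation 0 of the 13 were above and 9 below, where 1818 and 1414 of all 19505 genes were. Activity-dependent genes lay the other way, 13 of 18 below the spinal response and 0 above it, with and without quantile normalisation. Arc is an example, at -1.74 to -1.28 in the cerebral day 7 arrays and -0.80 to -0.21 in the spinal ones (-1.01 ± 0.32), a call lost without cerebral control array 3 (-0.81).

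Type I interferon genes were either higher in the cerebral response or not separated by the test. Of 20 genes 6 had a cerebral response above the spinal one and 0 below it. Ifit3 lay at 1.67, 1.70, 1.39 and 2.17 in the cerebral day 7 arrays and 0.41, 0.27, 0.16 and 0.12 in the spinal ones, where the spinal controls lay at -0.23 to 0.23 (1.49 ± 0.29, adjusted p = 1.93e-04). Ifit1 lay at 1.30, 1.16, 0.87 and 1.91 in the cerebral arrays and 0.033, -0.23, -0.10 and -0.15 in the spinal ones (1.42 ± 0.46), and Rtp4, Ifit2, Ifi27l2a and Isg15 were above by 1.28, 1.07, 1.04 and 0.79. Ifit1 failed this test without cerebral day 7 array 4 or spinal control array 2 (1.22), Rtp4 without any 1 of 5 arrays (1.12 to 1.25) and Isg15 without any 1 of 6 (0.59 to 0.76). Bst2 was at -0.84 ± 0.43 and did not pass. The count of 6 was 6 with quantile normalisation, 3 with cerebral controls 3 and 4 alone and 3 without cerebral day 7 array 4, and without spinal day 7 array 4 1 gene passed in the opposite direction. Gfap had a larger cerebral response too, at 3.14 to 3.36 in the cerebral day 7 arrays and 1.64 to 2.15 in the spinal ones (1.35 ± 0.37, adjusted p = 0.00548).

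Most other inflammatory lists had cerebral responses below the spinal ones, and this order depended on the scaling. Among phagocyte activation genes 11 of 18 were below the spinal response and 1, Csf1, above it, a call lost without any 1 of several arrays. With quantile normalisation, which gives every array the same spread of centred values, 0 of them were below it and 5 above it. Gpnmb lay at 6.22 to 6.80 in the cerebral day 7 arrays and 8.91 to 9.38 in the spinal ones (-2.54 ± 0.81, adjusted p = 0.0184). Of the neutrophil genes 11 of 14 were below, and 6 with quantile normalisation. Ngp, a neutrophil granule protein, lay at -0.36, -0.32, -0.34 and -0.0094 in the cerebral day 7 arrays and at 5.04, 4.58, 2.76 and 4.59 in the spinal ones, a difference of responses of -4.50 ± 0.50 (adjusted p = 7.89e-08). Arg1 lay at 1.69, 1.59, 1.16 and 1.33 in the cerebral day 7 arrays and at 6.28, 6.15, 5.68 and 6.94 in the spinal ones (-4.82 ± 0.62, adjusted p = 7.43e-07), all spinal arrays far above the cerebral ones. Cd36 lay at 2.95 to 3.84 in the cerebral arrays and 6.89 to 7.79 in the spinal ones (-3.92 ± 0.40), and Anpep had a difference of -4.05 ± 0.53, and neither passed with quantile normalisation. Col5a1, a fibrillar collagen, was at 0.41, 0.41, 0.59 and 0.13 in the cerebral day 7 arrays and 3.82, 4.47, 4.10 and 4.55 in the spinal ones (-3.85 ± 0.39). Of scar matrix genes 15 of 19 were below the spinal response, and of cell cycle genes 21 of 21, with Mki67 at 1.81 to 2.85 in the cerebral arrays and 5.68 to 6.38 in the spinal ones, but these counts were 7 and 2 with quantile normalisation.

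The 5 largest differences with the cerebrum above were of other kinds. Myh4 and Atp2a1 are skeletal muscle genes. Myh4 lay at -0.35, 0.028, -0.0031 and -0.30 in the cerebral day 7 arrays and -0.021, 0.19, -0.16 and -0.0043 in the cerebral controls, while the spinal day 7 arrays lay at -5.11, -5.13, -5.02 and -4.69 and the spinal controls at 2.52, 2.83, -1.07 and -4.28 (4.83 ± 1.24). Atp2a1 showed the same spread among spinal controls, 2.44, 1.91, -0.92 and -3.43 (4.37 ± 1.08), and in both genes the spinal controls differed from each other by more than the difference between the responses. For both, the pooled standard error is smaller than the spread of the spinal controls alone would give. All spinal day 7 arrays lay below all spinal controls in Myh4. Glra1, a glycine receptor subunit, lay at 2.33, 2.20, 2.15 and 2.73 in the cerebral day 7 arrays, against 0.043, 1.13, -0.77 and -0.40 in the cerebral controls, and at -0.73, -1.90, -0.79 and -0.79 in the spinal day 7 arrays (3.40 ± 0.39, adjusted p = 1.45e-07). Ebf3, a transcription factor, had a difference of 3.40 ± 0.40, with cerebral controls from -0.91 to 0.89, and the tachykinin Tac2 one of 3.23 ± 0.46, with spinal day 7 arrays from -3.44 to -2.27.

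**Figure D4:**
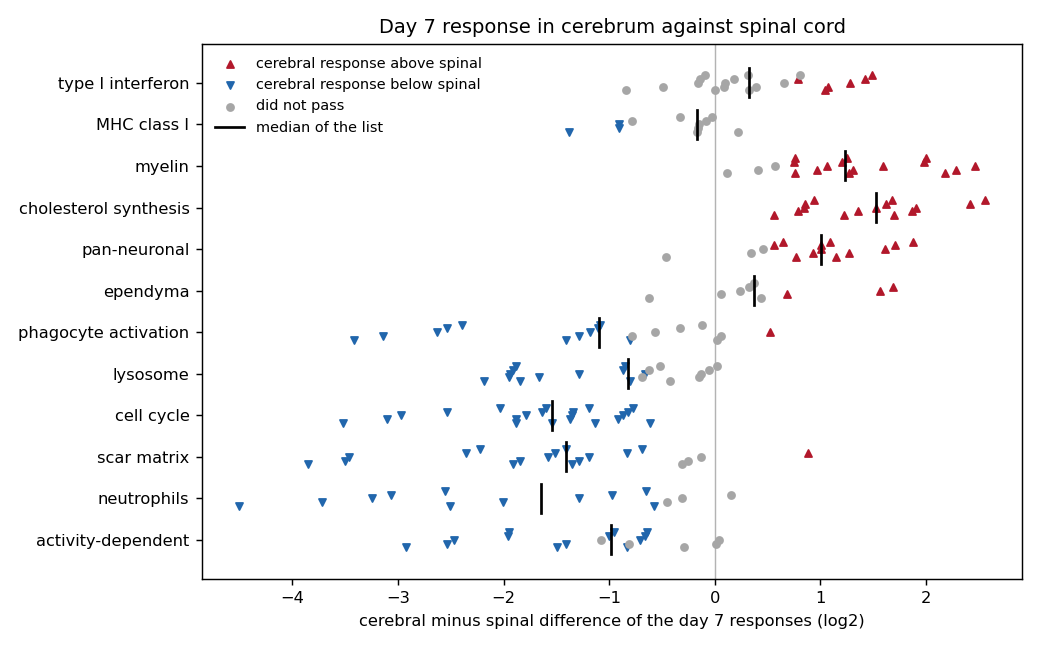
Difference between the day 7 responses, cerebral minus spinal, on the log2 scale for the measured members of 12 gene lists, 1 marker per gene: red triangles mark a cerebral response above the spinal one, blue triangles one below it, grey circles genes that did not pass, and black bars list medians. Myelin and cholesterol synthesis genes lie right of 0, at medians of 1.23 and 1.53, and cell cycle and neutrophil genes left of it, at -1.55 and -1.65, while interferon genes have a median of 0.32. The positions left of 0 moved with quantile normalisation, where the cell cycle median was -0.40.

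Against cerebral day 1, 425 genes were higher at day 7 (2.18% of those tested) and 362 lower (1.86%), together 4.03%. With each array scaled to its 75th percentile the split was 303 higher and 563 lower. The total of 787 was 468 without day 7 array 2, 497 without day 1 array 2 and 365 on the values as deposited. Deposited values were tested against 0 with no bound, and the rebuilt values tested in that way gave 2962. Of the genes that rose at day 7 over control, 209 were also above day 1 and 4 were below it. These comparisons share the day 7 arrays, so the counts describe the time course and are no independent test. Several phagocyte genes were higher at day 7 than at day 1. Gpnmb lay at 0.053, -0.081, -0.15 and 0.18 in the controls, 1.72, 1.59, 1.37 and 4.48 at day 1 and 6.80, 6.61, 6.75 and 6.22 at day 7, a difference of day 7 from day 1 of 4.31 ± 0.57 (adjusted p = 3.45e-05). Cd36 was at 3.72, 3.84, 3.49 and 2.95 at day 7 and 0.40, 0.19, 0.35 and 1.46 at day 1 (2.90 ± 0.28). Mir675 was at 5.41, 5.39, 5.20 and 4.38 at day 7 and 0.72, 0.85, 0.69 and 4.09 at day 1 (3.51 ± 0.59). In all 3 genes day 1 array 4 lay apart from the other 3 of its group, on the side of day 7. Lyz2 (2.81 ± 0.48) and Fabp4 (2.48 ± 0.49) completed the 5 largest, Fabp4 with an adjusted p of 0.0315 that leaving out any 1 of 6 arrays ended (2.34 to 2.49). Of the phagocyte activation genes 11 of 18 were above day 1 and 0 below, and 2 were above it on the values as deposited. Of the matrix proteases 7 of 21 were above it, and 3 without any 1 of day 1 arrays 2 and 3 and day 7 arrays 1, 2 and 3. On the values as deposited 1 of the 21 was above day 1.

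Reactive astrocyte and cell cycle genes were mostly not separated from day 1 by this test. Gfap had a difference of -0.34 ± 0.26 and Serpina3n one of -0.068 ± 0.21, and neither passed. Of the 21 cell cycle genes 0 passed in either direction by limma's test, 4 had an unadjusted p under 0.05, and the median was -0.21. With quantile normalisation 6 of them were lower at day 7. Tgm1, a transglutaminase among the reactive astrocyte genes, lay at -0.38, 0.27, -0.47 and 0.59 in the controls, 4.08, 4.98, 3.70 and 1.89 at day 1 and 1.66, 1.96, 1.69 and 1.92 at day 7 (-1.86 ± 0.44, adjusted p = 0.0149). Day 1 array 4 lay within the day 7 range, and the call was lost without day 1 array 1 or 2 (-1.72 to -1.42). Fgfr3, a growth factor receptor of astrocytes, was at 0.15, 0.062, 0.14 and 0.21 at day 7 and 1.21, 1.48, 1.78 and 1.55 at day 1 (-1.37 ± 0.29). The noncoding RNA Tug1 was at -0.035, 0.057, -0.12 and 0.12 at day 7 and 1.31, 1.22, 1.61 and 1.05 at day 1 (-1.29 ± 0.17). Dnm1, the neuronal dynamin (-1.15 ± 0.16), and Clstn1, a calsyntenin (-1.11 ± 0.14), completed the 5 largest falls against day 1. On the values as deposited, tested with no bound, Gpnmb, Mir675, Lyz2, Fabp4 and Fgfr3 no longer passed against day 1.

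**Figure D5:**
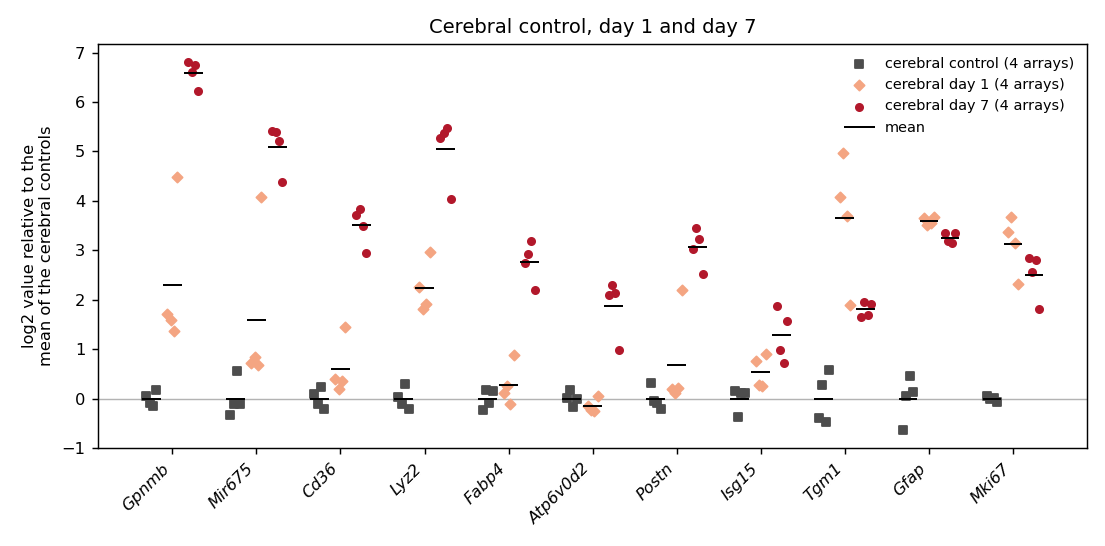
Log2 values of 11 genes relative to the mean of the 4 cerebral controls, for the controls (grey squares), day 1 (orange diamonds) and day 7 (red circles), with 1 point per array and bars for group means. Gpnmb, Mir675 and Cd36 are highest at day 7, with day 1 array 4 above the other day 1 arrays, at 4.48 for Gpnmb, while Tgm1 is highest at day 1 and Gfap is at 3.14 to 3.36 at day 7 and 3.52 to 3.67 at day 1.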

How the data were processed

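RNA of mouse cerebrum and spinal cord was measured on microarrays, and the deposited values are log2 values per probe that the authors had centred on a median of 0. How probe intensities were summarised and background corrected was not given in the sources used here. Control and day 1 arrays together had a median of 0 in 100% of the 22206 probes. The day 7 arrays were taken to have been centred apart, together with controls. Of the 5147 probes that bear on the choice of partners, 86.4% matched controls, 70.3% day 1 and 69.8% day 3. This choice is an inference, since some probes did not match the controls either, and the day 7 values rest on it. The shift this left between the parts was rebuilt for each probe as a range, a single value in 80.0% of probes, and its midpoint was added to the day 7 values, with a median size of 0.0923. An allowance of 0.145 is the 99th percentile of the mismatch among those tested probes that did not match the controls. No true shift was known to check it against. With the half-width of the range, at most 3.12, it makes the bound of each gene.

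Probes were named from GEO's platform annotation. Of these, 19572 had 1 symbol and 2634 had none, and 55 of the 19505 genes were the mean of several probes. A single limma model with a mean for each of the 8 groups was fitted to all 32 arrays, which leaves 24 residual degrees of freedom. Day 7 against control and against day 1 were tested against the bound, and the difference between cerebral and spinal responses, in which the shift cancels, against 0. P-values were adjusted by the Benjamini-Hochberg method over all genes. The test was tried first on simulated data with known changes. These data were built with the centring assumed here, so the trial could not check that assumption. Changes were put into the cerebral day 7 arrays only, in no genes or in far fewer genes than were called here. The number of arrays, 4 in each group, limits the precision, and the median residual SD was 0.185. R 4.3.3, limma 3.58.1, Python 3.11.15, numpy 2.4.6 and pandas 2.3.3 were used.

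Samples were grouped by the treatment their labels give, and replicates were numbered in accession order. Named genes are the 15 largest rises and falls whose 4 day 7 arrays lay beyond all 4 controls, the 5 largest each way in the other comparisons, and members of gene lists, with predicted genes passed over. The comparison, the lists and the rule were chosen with earlier results of these data known. Listed genes without a named probe were not analysed here. Alternatives were other scalings, samples in the fit, array weights, robust moderation, single probes, other treatments of the shift, either pair of controls and leaving out each array.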

Additional observations from a re-analysis of the deposited data

Results flagged for a closer look

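Within groups of 4 arrays, 1 array stood apart from the other 3 by Dixon's criterion in 33 of the 620 groups of genes and list means examined. Chance gives about 1 in 20. Day 7 array 4 was the low one in C1qb (2.89), Igf1 (2.78), Lyz2 (4.04), Igfbp5 (1.57), Mmp2 (1.09) and Il1b (0.075), and the high one in Ngp (-0.0094) and in the mean of the neutrophil list (0.25). Day 7 array 3 stood apart in Dlg4 (-0.65), Npas4 (-0.64) and Nr4a2 (-1.04), array 2 in Egr3 (-0.85), P2ry13 (0.32) and Stat2 (0.23), and array 1 in Homer1 (-1.32). Among the cerebral controls, array 1 stood apart in Egr2 (-1.58), in the mean of the activity-dependent list (-0.49) and in that of the ependyma list (0.38). Control array 2 did so in Ctsh (0.16), Isg15 (-0.37), Oas2 (-0.34) and Slc1a2 (-0.087), array 3 in Anpep (0.39), Clstn1 (0.34), Cux2 (0.47) and Slc40a1 (0.079), and array 4 in Cxcl10 (-0.33) and Mmp14 (-0.44). Day 1 array 4 stood apart in Gpnmb (4.48), Mir675 (4.09) and Cd36 (1.46). Spinal day 7 array 2 did so in Glra1 (-1.90) and spinal day 7 array 4 in Rtp4 (0.15), both relative to the spinal controls.

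The 20 named genes gathered here all passed the test of the difference between the cerebral and spinal day 7 responses. The 5 largest each way were named because they passed it, so the list is no further support. The cerebral response was above the spinal one in Myh4 (4.83), Atp2a1 (4.37), Glra1 (3.40), Ebf3 (3.40), Tac2 (3.23), Hmgcs1 (2.41), Ifit3 (1.49), Ifit1 (1.42), Gfap (1.35), Rtp4 (1.28), Ifit2 (1.07), Ifi27l2a (1.04) and Isg15 (0.79), on the log2 scale. It was below it in Arg1 (-4.82), Ngp (-4.50), Anpep (-4.05), Cd36 (-3.92), Col5a1 (-3.85), Gpnmb (-2.54) and Arc (-1.01).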

How the results depend on the processing

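The count of genes changed at day 7 against control, 1591, was 2415 with quantile normalisation, 4340 with the rebuilt shift taken as exact, 3763 with no allowance and 898 with controls 1 and 2 alone. The exact shift and the missing allowance lower the bound by construction, and their shares of higher calls were 51.9% and 51.7%, against 64.7%. Leaving out 1 array gave 1153 to 1403, and the other settings 1230 to 2290. With only the compared groups in the fit the count was 2083. The 2290 came from the values as deposited, and only 1107 of the 1591 were among them in the same direction. Deposited values were tested against 0 with no bound, here and against day 1. Their like counts are therefore those with the shift taken as exact, 4340 here and 2962 against day 1. Which genes were called therefore depended on the rebuilt shift more than the count shows. The count of genes with a cerebral minus spinal difference, 5382, was 3232 with quantile normalisation, 4653 to 5465 without 1 array, and 4253 to 5886 otherwise. Of the 3232, 2520 were among the 5382 in the same direction. The count against day 1, 787, was 1997 with quantile normalisation, 1396 with only the compared groups in the fit, 1509 with array weights, 365 on the values as deposited, 2962 with the shift taken as exact, 2675 with no allowance, and 468 to 662 without 1 array. Of 261 single-gene values 178 kept their direction and their side of the threshold in every setting, and 2 turned their sign, both on the values as deposited, Enpp6 (-0.26) and Nefm (0.011). The causes were not tested. No paired analysis was possible because the replicate numbers follow accession order and the titles share none between groups. Another background correction, a filter on dim probes and a slide or scan block were not run, since the values hold neither levels nor scan records.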
